A study of Mus musculus with 3 samples.

Results

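The Rab GTPase genes are the mouse genes with a symbol made of Rab, a number and at most a short suffix, and with at least 1 transcript annotated as protein coding. This rule took 59 of the 55450 genes named in the read-based transcript tables, and it used names only, with no measured value. Rab proteins are small GTPases that give membranes of the secretory and endocytic routes their identity. A guanine nucleotide exchange factor (GEF) loads a Rab with GTP on a membrane, the loaded Rab binds effectors such as tethers and motors, and a GTPase-activating protein (GAP) switches it off. A lipid tail holds it on the membrane, and GDP dissociation inhibitors extract and recycle it. In macrophages these proteins guide the phagosome from the early endosome stage to fusion with lysosomes, and they carry TLR4 and cytokines to the cell surface.

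RNA of the chromatin fraction, which is enriched in transcripts still being made or processed, was sequenced from bone-marrow-derived macrophages of C57BL/6J mice. These primary cells had been exposed for 12 h to 100 ng/ml of Lipid A, the lipopolysaccharide moiety that TLR4 recognises, had been kept without it for 12 h, and had been restimulated with 100 ng/ml for 15 min. This was the only group analysed here, with biological replicates 1, 2 and 3 and no unstimulated or singly stimulated cells, so the values describe these cells after restimulation and hold no response to it. The labels give the same donor identifier for the 3 libraries and no age or sex, and they do not say whether separate animals were used, so the spread between libraries may be technical in part.

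Starting amounts were 1000, 250 and 500 ng of RNA, and the libraries held 14609979, 17423948 and 24162551 expected counts in replicates 1, 2 and 3, of which the Rab genes took 0.162, 0.142 and 0.140%. Replicate pairs differed by more than counting noise, with a chi-square per degree of freedom of 12.7 to 25.3. All 9 macrophage markers examined were at 15.9 to 329.6 TPM (a read count scaled for transcript length and then to the same total in every library), with sums of 986, 993 and 887 TPM. In the alignment-based table no neutrophil, lymphocyte or erythroid and mast cell marker reached 1 TPM, with 2 of 8, 2 of 7 and 4 of 6 listed at 0 and a summed level per list of at most 1.00 TPM in any library. Zbtb46, at 1.58 TPM, was the dendritic cell marker above 1 TPM among 5, and Pecam1, at 1.31 TPM, the stromal marker above it among 7. The read-based table put 3 neutrophil, 3 lymphocyte, 2 dendritic, 2 stromal and 0 erythroid and mast cell markers at 1 TPM or more.

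Members of the family share stretches of coding sequence, which matters for how reads of a short fragment are assigned. Of the 6 longest stretches held in common by a pair of Rab coding sequences, 4 follow, for close paralogs and for Rabs of different compartments, as read from the GENCODE M21 transcripts. Capitals mark the letters GACACNGCNGGNCAG, which encode the G3 motif that touches the last phosphate of GTP.
Rab1a and Rab1b: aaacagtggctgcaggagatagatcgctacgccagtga
Rab1a and Rab10: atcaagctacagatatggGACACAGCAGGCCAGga
Rab5a and Rab5b: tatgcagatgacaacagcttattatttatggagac
Rab4a and Rab8a: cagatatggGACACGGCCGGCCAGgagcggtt
Of 1711 pairs, 54 had a run of at least 20 identical bases in common and 6 had one of at least 31. The longest, between the ER-to-Golgi pair Rab1a and Rab1b, was 38 bases. In 14 of the 54 pairs the longest run contained the G3 letters, also between Rabs of different compartments such as Rab4a and Rab8a. These runs are short against coding sequences of 194 (Rab22a) to 973 (Rab44) codons.

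Most Rab genes had chromatin RNA. Detection was set at 10 expected counts on average over the libraries, which 45 of 59 Rab genes reached (76.3%), against 11745 of 21951 protein-coding genes (53.5%). On the TPM scale 42 Rab genes had a mean of at least 1 (71.2%), against 48.5% of protein-coding genes. A mean of at least 10 was reached by 23 Rab genes and of at least 20 by 14, with no share over all genes beside these. The median level of the 59 genes was 2.88 ± 0.04 on the log2(TPM + 1) scale (SD, n = 3), against 0.80 for all protein-coding genes. Over detected genes alone the medians were 3.57 ± 0.11 for the Rab genes and 3.43 ± 0.03 for protein-coding genes (SD, n = 3), so most of the distance lay in how many genes were detected and not in how high the detected ones were. The libraries came from a bulk population, in which fewer cells making an RNA and less RNA per cell cannot be told apart.

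**Figure D1:**
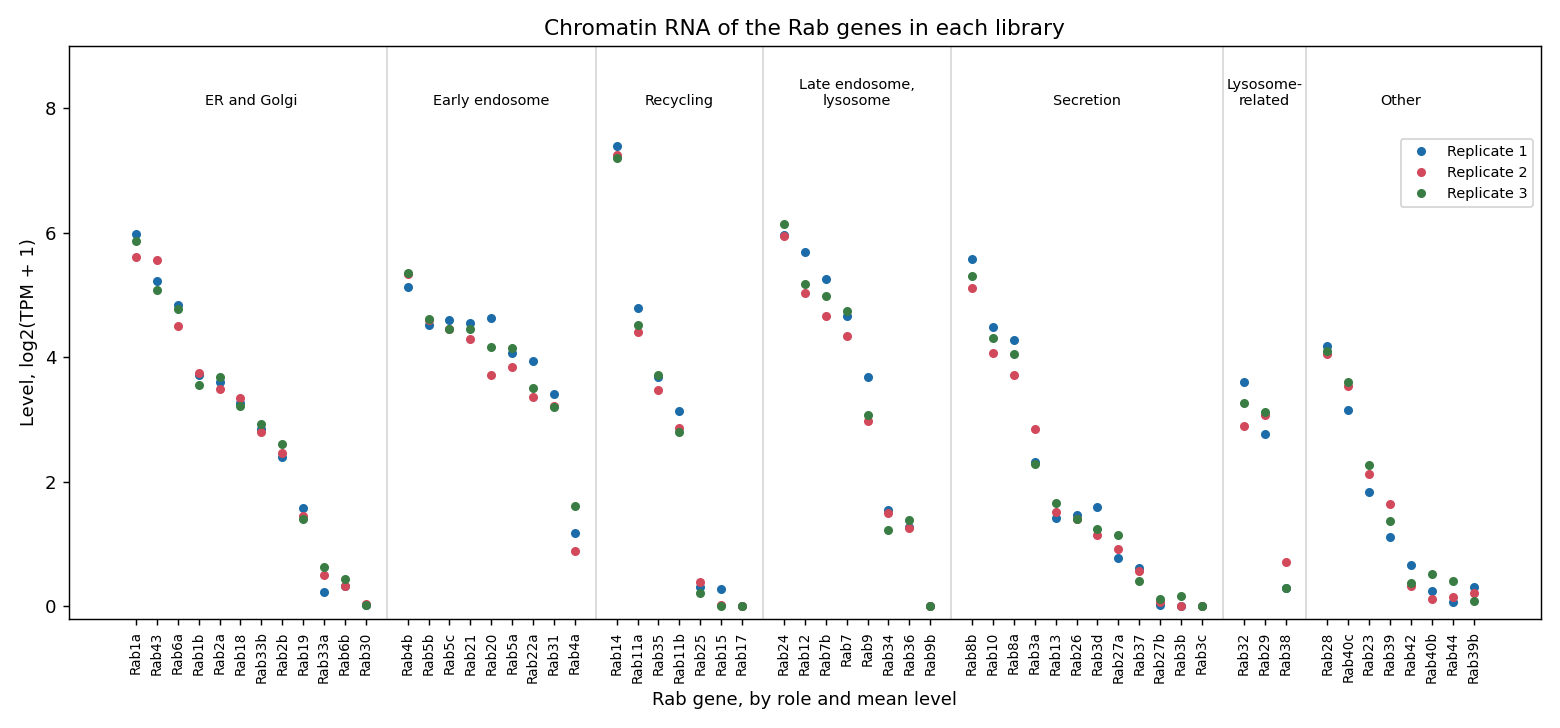
Level of each of the 59 Rab genes on the log2(TPM + 1) scale of the alignment-based gene table, grouped by role and ordered by mean within a role; each point is 1 library. Rab14 stood highest, at 146 to 168 TPM, and every role held a gene under 1 TPM except the early endosome group, whose lowest gene was Rab4a at 1.40 TPM.

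Among the recycling Rabs, Rab14 was the highest gene of the whole family. Rab14, which works between the Golgi, recycling endosomes and phagosomes, is annotated at chromosome 2, 35180205 to 35201120 (mm10, minus strand). Its levels were 168, 151 and 146 TPM in replicates 1, 2 and 3, or 155 ± 11.4 (SD, n = 3), and the recycling group held 23.9% of all Rab TPM. In the alignment-based table the gene was more than 2-fold above Rab24, the next in order, in every library. Rab11a, a recycling endosome Rab known to bring TLR4 to phagosomes, had 26.7, 20.1 and 21.8 TPM. Rab35, which acts at the plasma membrane and in rapid recycling, had a mean of 11.3 ± 1.10 and Rab11b of 6.67 ± 0.971 TPM (SD, n = 3). Rab15 and the epithelial Rabs Rab17 and Rab25 were not detected, and Rab17 was listed at 0 in each library and in both kinds of table.

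In the alignment-based table, late endosome and lysosome Rabs were led by Rab24, which takes part in autophagy. Rab24 had 61.3, 60.5 and 69.6 TPM, and its gene on chromosome 13 (55319743 to 55321946) shares 62.4% of its exon bases with Prelid1 on the opposite strand, a gene at 11.8 ± 0.549 TPM (SD, n = 3). Rab12, which sends receptors to lysosomes, had 50.5, 31.8 and 35.0 TPM. Rab7b had 37.3, 24.2 and 30.6 TPM; it moves cargo from endosomes to the Golgi and is known to lower TLR4 levels in macrophages. Rab7, the main Rab of late endosome and phagolysosome fusion, had 24.4, 19.3 and 25.7 TPM. Rab7b lay above Rab7 in each library, although its lowest value was under the highest of Rab7. Rab9, of the route from late endosomes to the Golgi, had 11.8, 6.88 and 7.43 TPM, while its paralog Rab9b was listed at 0 in each library. Rab34 and Rab36 had 1.70 ± 0.312 and 1.48 ± 0.116 TPM (SD, n = 3). In the read-based table Rab24 had a mean of 43.0 TPM, below Rab7b at 112, Rab12 at 68.6 and Rab7 at 46.3.

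The early endosome group was detected in full, with 9 of 9 genes at 1 TPM or more and a median of 4.18 ± 0.33 (log2(TPM + 1), SD, n = 3), the highest of the 7 roles in the alignment-based table. Rab4b, of rapid recycling, led it with 34.1, 39.3 and 40.1 TPM, while its paralog Rab4a was lowest with 1.40 ± 0.615 TPM (SD, n = 3). The Rab5 genes set up the early endosome and fuse incoming vesicles. In the alignment-based table Rab5b, Rab5c and Rab5a lay close together, at 22.8 ± 0.875, 21.7 ± 1.29 and 15.3 ± 1.70 TPM (SD, n = 3). Rab5b and Rab5c overlapped between libraries, and Rab5a stayed below both in each of them. Rab21, which moves integrins, had 20.7 ± 1.94, Rab22a 11.4 ± 2.64 and Rab31 8.72 ± 0.786 TPM. Rab20, a Rab of phagosome maturation, had 23.8, 12.1 and 16.9 TPM. In the read-based table the Rab5 genes lay further apart, with means of 50.8 TPM for Rab5c, 22.6 for Rab5b and 13.6 for Rab5a.

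For transport between the endoplasmic reticulum (ER) and Golgi, 10 of 12 genes were detected. Rab1a, which drives traffic from the ER to the Golgi, had 62.1, 47.9 and 57.6 TPM, against 11.8 ± 0.842 TPM for Rab1b (SD, n = 3). Rab43, a Golgi and phagosome Rab, had 36.5, 46.5 and 33.0 TPM, but 75.4% of its exon bases are shared with Gm45140 on the same strand, a gene model that the read-based table put at 6.81 TPM against 41.1 for Rab43. Rab6a, of retrograde Golgi transport, had 27.6, 21.6 and 26.4 TPM, whereas Rab6b, its neuronal paralog, had 0.283 ± 0.0577. Rab2a had 11.1 ± 0.778 and Rab2b 4.63 ± 0.436 TPM. Rab18, a Rab of the ER and lipid droplets, had 8.67 ± 0.405, Rab33b 6.25 ± 0.341 and Rab19 1.78 ± 0.186 TPM. Rab33a (0.380 ± 0.193 TPM) and Rab30 (0.0167 ± 0.0115 TPM) were not detected.

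Secretory Rabs ranged from 3 genes above 10 TPM to 3 near 0, with a median of 1.35 ± 0.08 (log2(TPM + 1), SD, n = 3). Rab8b, of traffic from the Golgi to the plasma membrane, had 47.0, 33.7 and 38.4 TPM, Rab10, known to deliver TLR4 to the macrophage surface, had 18.7 ± 2.79 and Rab8a 15.4 ± 3.07. Of the Rab3 genes, which serve regulated exocytosis in neurons and glands, Rab3a had 4.01, 6.22 and 3.87 TPM and Rab3d 2.02, 1.20 and 1.37. Rab3b and Rab3c were not detected, at 0.0400 TPM and 0. Rab27a, of lytic and secretory granules, had 0.720, 0.890 and 1.22 TPM, and its paralog Rab27b 0.0467 ± 0.0351 (SD, n = 3). Rab13 had 1.90 ± 0.247, Rab26 1.68 ± 0.0577 and Rab37 0.450 ± 0.108 TPM.

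Of the Rabs of lysosome-related organelles, Rab32 and Rab29 were detected and Rab38 was not. Rab32, which helps macrophages restrict intracellular bacteria, had 11.1, 6.46 and 8.60 TPM. Rab29, a close relative, had 6.99 ± 1.00 and Rab38, known from pigment cells, 0.367 ± 0.237 TPM (SD, n = 3). Among the remaining 8 genes, Rab28 had 17.1, 15.5 and 16.2 TPM and Rab40c, which belongs to a ubiquitin ligase, 7.86, 10.6 and 11.2. Rab23, known from Hedgehog signalling, had 3.25 ± 0.623 and Rab39 1.63 ± 0.486 TPM. The remaining genes Rab42, Rab40b, Rab44 and Rab39b lay between 0.153 and 0.373 TPM and were not detected.

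The replicates differed little for most Rab genes. The median SD over the 3 libraries was 0.18 on the log2(TPM + 1) scale for the 45 detected Rab genes and 0.16 for the 11745 detected protein-coding genes. As a measure of each library, its level was set against the mean of the other two. This difference had a median of 0.11 in replicate 1, -0.09 in replicate 2 and 0.03 in replicate 3 for the Rab genes, against 0.00, -0.03 and 0.03 for detected protein-coding genes. Other scalings and the read-based table gave medians of 0.01 to 0.18 in replicate 1 and of -0.12 to -0.10 in replicate 2. With 3 libraries of the same group and no second group, none of this was tested.

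Replicate 1 was the highest library for 23 of the 45 detected Rab genes (51.1%), whereas it was highest for 36.7% of detected protein-coding genes. Replicate 2 was highest for 5 Rab genes (11.1%; background 29.5%), namely Rab1b, Rab3a, Rab18, Rab39 and Rab43, and lowest for 25 (55.6%; background 39.4%). Replicate 3 was highest for 17 (37.8%; background 33.7%). The count for replicate 1 depended on the scaling: it was 29 of 45 after TPM were rescaled without very short and ribosomal features (background 46.1%) and 19 of 45 with edgeR's TMM (background 30.0%). Replicate 1 also had the most input RNA, 1000 ng, and the fewest counts, and replicate 2 the least input; the part of input and depth in these counts was not tested. By role, replicate 1 was highest for 3 of 4 detected recycling genes, 6 of 9 secretory genes and 5 of 9 early endosome genes, but for 3 of 10 ER and Golgi genes.

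Few Rab genes passed a 1.5-fold difference in any library. In replicate 1 Rab20 and Rab9 lay over 1.5-fold above the other libraries (2 of 45; background 3.78%) and 0 of 45 lay below (background 2.54%). In replicate 2 Rab20 lay over 1.5-fold below (1 of 45; background 3.44%) and 0 lay above (background 1.79%). In replicate 3 the counts were 0 above (background 1.59%) and 0 below (background 1.38%). These shares are near the background.

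Rab20 was the most variable Rab gene with at least 100 counts. Its level in replicate 1 was 0.69 above the mean of the other libraries on the log2(TPM + 1) scale and in replicate 2 it was 0.68 below, from 351, 217 and 385 expected counts. In the read-based table the same differences were 0.76 and -0.63. Of the Rab20 exon bases, 25.6% overlap E230013L22Rik, a transcript on the opposite strand at 13.6 ± 1.56 TPM (SD, n = 3), and no source used here says whether counting used strand. Rab9 lay 0.65 above in replicate 1 but 0.18 above in the read-based table, so its difference rested on the alignment-based values. Rab32 (0.52 above in replicate 1 and 0.53 below in replicate 2), Rab12 (0.58 above in replicate 1) and Rab7b (0.44 above in replicate 1, but 0.12 in the read-based table) followed the same order of libraries. Rab40c went the other way, 0.43 below in replicate 1 and 0.27 above in replicate 3, but -0.17 in replicate 1 of the read-based table.

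**Figure D2:**
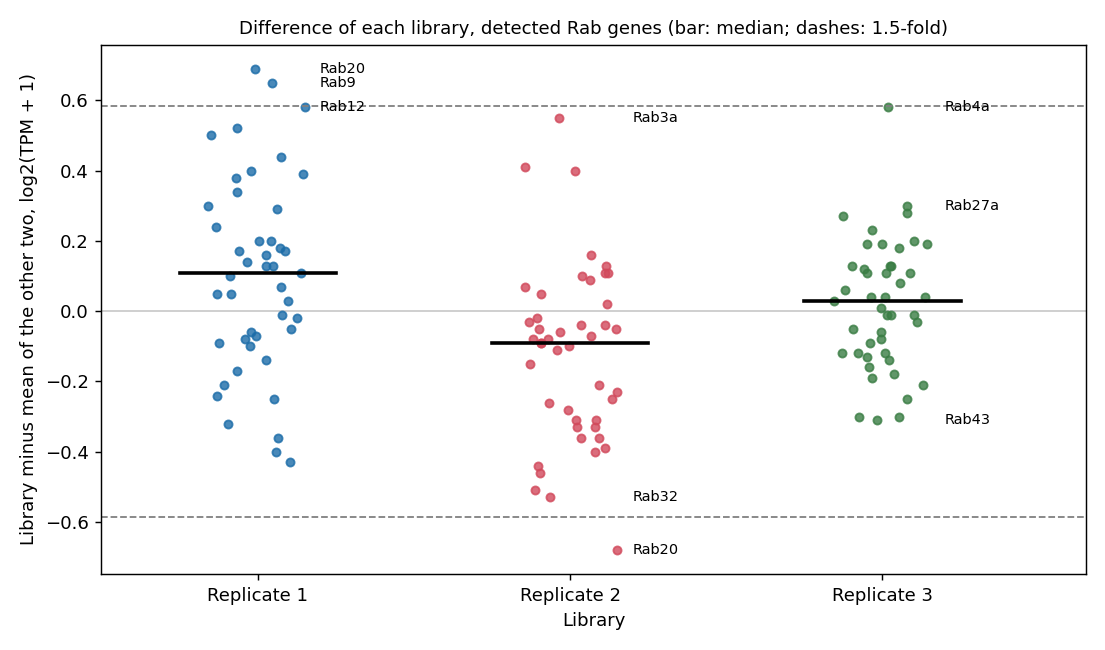
Difference between each library and the mean of the other two, on the log2(TPM + 1) scale, for the 45 detected Rab genes; black bars are medians and dashed lines mark a 1.5-fold difference. The medians are 0.11, -0.09 and 0.03 in replicates 1, 2 and 3, and Rab20 lies past 1.5-fold in replicate 1 (above) and replicate 2 (below).

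The deposited transcript tables also divide each gene's RNA over annotated transcripts, among them ones that retain an intron. The chromatin fraction is enriched in RNA still being processed, so unspliced precursors and transcripts that keep an intron cannot be told apart in these shares. For the 42 Rab genes with a mean of at least 1 TPM, the median share in protein-coding transcripts was 86.4 ± 6.26% (SD, n = 3), against 56.8 ± 1.53% over 10607 genes of the same level. In the read-based table the medians were 65.7 ± 4.56 and 51.1 ± 0.520%, over the 49 Rab genes and 13103 genes at 1 TPM or more there. The gene sets thus differ between the tables. The share was under 50% in 14 Rab genes (33.3%) and in 42.7% of all these genes. Among the 19 Rab genes that have an intron-retaining transcript, the median share of those transcripts was 48.5 ± 5.25%, and over 6584 such genes it was 46.8 ± 1.24% (SD, n = 3). The protein-coding share of the same genes was 46.1 ± 3.92 against 43.6 ± 1.36%. In the read-based table such genes at 1 TPM or more were 23 Rab genes and 7515 genes in all. Their protein-coding medians were 49.4, 39.7 and 42.9% in replicates 1, 2 and 3 against 35.6, 35.9 and 36.8%. Across the 42 Rab genes the protein-coding share was lower with a higher number of annotated transcripts (Spearman rho -0.59), a description over genes measured in the same 3 libraries.

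Rab14 had most of its TPM assigned to intron-retaining transcripts, from which unspliced precursor RNA cannot be told apart. The protein-coding share was 13.1, 11.6 and 16.5% and the intron-retaining share 85.8, 87.2 and 82.6% in replicates 1, 2 and 3, so the libraries did not differ in which kind prevailed. Its highest transcript, Rab14-210, retains an intron, is 5003 bases long and had 33.9, 29.1 and 29.3 TPM. The protein-coding Rab14-201 had 12.5 ± 4.06 TPM (SD, n = 3), below the gene level of many other Rabs.

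Rab23, Rab4b, Rab8a and Rab36 had the lowest protein-coding shares beside Rab14. Rab23 had 8.65 ± 2.10% in protein-coding transcripts and 88.8 ± 4.18% in intron-retaining ones (SD, n = 3). Rab4b had 14.4 ± 3.29% and 66.8 ± 1.91%, and 65.0% of its exon bases are shared with Gm21983, a gene model on the same strand listed at 0. Rab8a had 29.2 ± 3.26% and 70.8 ± 3.26%, and Rab36 37.3 ± 15.6% and 62.7 ± 15.6%, with the wide spread of a gene at 51.7 mean counts. These are shares of TPM, which is scaled for length. By mean expected counts the order in Rab8a was the reverse. The intron-retaining Rab8a-202, 542 bases long, had 53.0 counts, and the protein-coding Rab8a-201, 4550 bases long, had 302. Rab1a had 57.7% of its TPM in transcripts annotated as processed transcripts without a coding sequence. It has no annotated intron-retaining transcript, so a share of those could not be measured. At least 99% of the TPM lay in protein-coding transcripts for 14 of the 42 Rab genes and for 2287 of the 10607 genes. Among the 14 were Rab8b, Rab7, Rab5c, Rab10 and Rab20. These genes have only protein-coding transcripts annotated, so the annotation fixed their share.

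**Figure D3:**
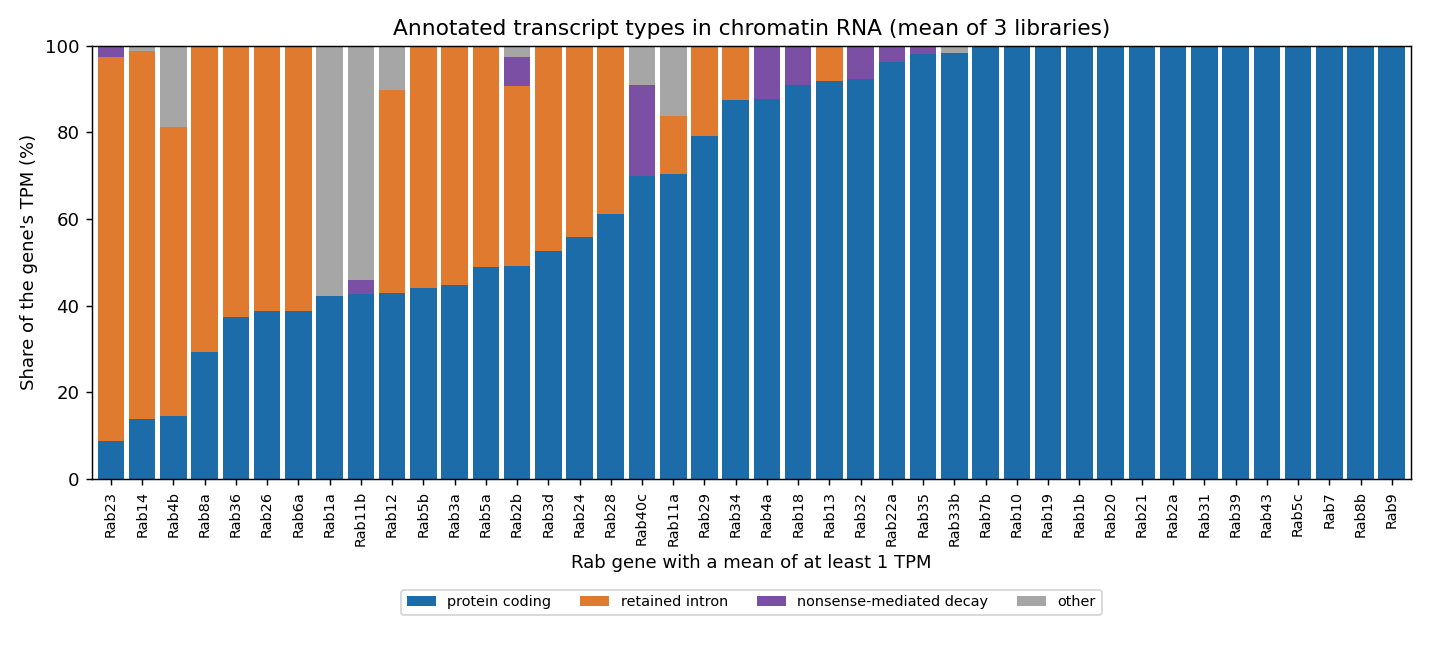
Share of each gene's TPM (%) in annotated transcript types, mean of 3 libraries, for the 42 Rab genes with a mean of at least 1 TPM, ordered by the protein-coding share. Rab23 (8.65%), Rab14 (13.7%) and Rab4b (14.4%) stand at the low end. At the high end 14 genes have at least 99% in protein-coding transcripts, among them genes with no other type annotated.

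The read-based tables gave higher levels than the alignment-based ones for many Rab genes. The median difference on the log2(TPM + 1) scale was 0.35 for the 45 detected Rab genes and 0.33 for the 11745 detected protein-coding genes. It was above 1 for 8 of these 45 Rab genes (17.8%) and for 14.7% of the protein-coding genes, a share near it, and below -1 for 0 Rab genes and 14 protein-coding genes. The order of the genes was kept in broad terms (Spearman rho 0.89 over the 42 genes of at least 1 TPM, a description over genes of the same libraries). Rab14 was highest in both, at 155 and 146 ± 11.8 TPM. Rab7b, however, moved from eighth place to second in the read-based table, with 112 ± 5.66 TPM against 30.7 ± 6.52 (SD, n = 3). There its leading transcript was Rab7b-205, 497 bases long, with 62.0, 59.6 and 61.1 TPM, which the alignment-based table set at 1.23, 0 and 0.330. Leading transcripts under 700 bases numbered 16 in the read-based table and 5 in the other, of 42 genes. Of the 36 genes with more than 1 transcript, 14 had the same leading transcript in both tables. No counts over all genes stand beside these counts of leading transcripts, so they cannot be read as particular to the Rab genes.

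**Figure D4:**
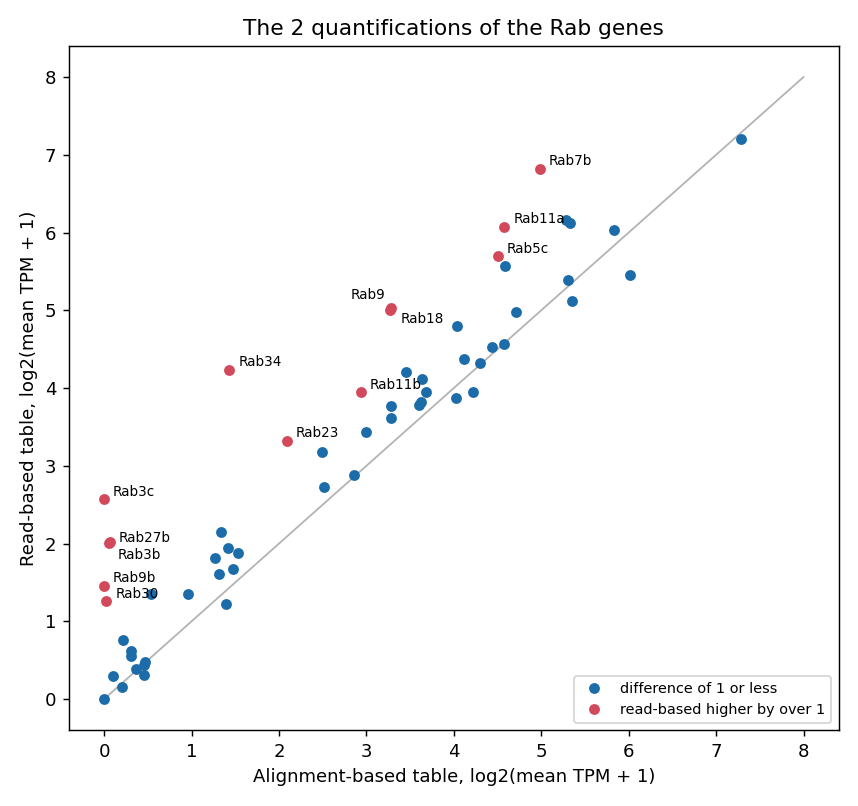
Mean level of each of the 59 Rab genes in the alignment-based table (horizontal) and in the read-based table (vertical), both as log2(mean TPM + 1); the line marks equal values and red points are genes with a read-based value more than 1 higher. Rab7b, Rab34 and the group Rab3c, Rab27b, Rab3b, Rab9b and Rab30, at or near 0 in the alignment-based table, lie above the line.

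The 7 Rab genes that reached 1 TPM in the read-based table alone were Rab27a and Rab37, which lay just under 1 TPM or at 0.450 in the other, and Rab3c, Rab27b, Rab3b, Rab9b and Rab30, which lay at or near 0 there. These 7 of 59 are 11.9%, and 11.7% of all protein-coding genes did the same. Rab3c was listed at 0 in each library by alignment and at 4.29, 5.07 and 5.46 TPM in the read-based table. Rab9b went from 0 to 1.74 ± 0.227, Rab27b from 0.0467 to 3.07 ± 0.387, and Rab3b from 0.0400 to 3.03 ± 0.253 TPM (SD, n = 3). Rab34 had the widest gap of all, 2.76 on the log2(TPM + 1) scale, from 1.70 to 17.8 TPM. Of those 17.8 TPM, 14.0 lay in Rab34-207, an intron-retaining transcript of 352 bases.

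Some of these transcripts carry sequence found in many genes. It is shown for Rab34, which has the widest gap, and for Rab14, which has a difference of -0.08 between the tables, because an intron-retaining transcript of each holds it. Each line is the stretch of 31 bases that occurs in the most other genes, from the GENCODE M21 transcripts; its letters are those of B1, an abundant short interspersed repeat of rodents.
Rab34-207, bases 292 to 322: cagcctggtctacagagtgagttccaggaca
Rab14-210, bases 3469 to 3499: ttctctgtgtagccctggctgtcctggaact
The Rab34 stretch occurs in transcripts of 742 other genes and the Rab14 stretch in those of 717. In Rab34-207, 96 of 322 stretches of 31 bases are found in other genes, and in the longer Rab14-210, 121 of 4973. For Rab3c, Rab30, Rab9b, Rab27b and Rab11b, the numbers of other genes sharing at least 1 such stretch were 3000, 2964, 2840, 1537 and 1456. The shared stretches numbered 96, 49, 27, 125 and 953. The difference between the tables was 1.95 for Rab27b and 1.01 for Rab11b. Differences of 1 or less also occurred in genes that share stretches widely. They were -0.22 for Rab8b (3469 other genes), 0.03 for Rab33b (1085), 0.40 for Rab27a (1663) and 0.69 for Rab2b (2732). Rab8a, Rab4b and Rab7 had 0.78 (1717), 0.88 (1166) and 0.97 (1360). The remaining genes with differences over 1 share such stretches with few genes or none. Their differences were 1.95 for Rab3b (2 other genes), 1.85 for Rab7b (1), 1.78 for Rab9 (3) and 1.73 for Rab18 (6). For Rab11a the difference was 1.51 (1), for Rab23 1.25 (1) and for Rab5c 1.19 (0). The part of repeats in the read-based values was not tested.

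Overlap with neighbouring genes touched 20 of the 59 Rab genes, 6 on the same strand and 15 on the opposite strand. Overlaps were not counted over all genes, so these numbers cannot be read as particular to the Rab genes. Shared stretches of 31 bases made up 74.8% of all those in Rab43, 62.7% in Rab4b, 59.6% in Rab2b, and 54.4% in Rab24. Rab2b overlaps Gm43766 on the opposite strand, at 1.04 ± 0.290 TPM (SD, n = 3). Rab7 shares 18.4%, chiefly with the pseudogene Rab7-ps1 and with Gm5577, an antisense gene that overlaps it. Reads from shared stretches can be divided between these genes with error. Rab12, Rab32, Rab5c, Rab28, Rab31 and Rab35 share none.

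Promoters of Rab genes were GC-rich. RefSeq gave 60 promoters for 48 of the Rab genes on GRCm38.p6, and the 250 bases before the start had a median GC content of 60.2% and 15 CpG, against 52.4% and 6 CpG over 32851 promoters. The promoters of Rab14, the highest gene, and Rab9, past 1.5-fold in replicate 1, are shown on the minus strand of the build, 5′ to 3′ up to the base before the start. They hold none of the motifs searched and so have no capitals.
Rab14, chr2:35201121-35201370: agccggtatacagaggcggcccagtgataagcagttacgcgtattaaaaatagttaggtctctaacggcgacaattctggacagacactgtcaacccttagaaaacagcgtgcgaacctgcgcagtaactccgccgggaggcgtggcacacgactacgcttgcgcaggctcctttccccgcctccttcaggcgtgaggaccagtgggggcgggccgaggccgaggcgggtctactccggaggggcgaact
Rab9, chrX:166479868-166480117: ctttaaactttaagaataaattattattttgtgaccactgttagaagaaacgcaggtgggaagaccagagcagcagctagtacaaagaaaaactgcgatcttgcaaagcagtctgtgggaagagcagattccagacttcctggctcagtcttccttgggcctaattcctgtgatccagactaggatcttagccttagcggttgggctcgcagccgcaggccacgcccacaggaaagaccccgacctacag
Rab14 had 60.0% GC and 23 CpG, and Rab9 48.8% and 7 CpG. For Rab20 only the stretch of 30 bases around its E-box is shown, since the RefSeq start lies 70 bases inside the GENCODE gene. It runs from 58 to 29 bases before the start, with the E-box in capitals.
Rab20: cggccgggcaccCACGTGgtcgcagggctg

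Matches to 4 motifs of factors active in macrophages were few, in 1 to 5 of the 60 Rab promoters per motif. Both strands of the 250 bases were searched. The E-box CACGTG, a site of the TFE3, TFEB and MITF family that drives lysosome genes, was in 8.3% of Rab promoters and 6.02% of all, and its holders were Rab5a, Rab20, Rab21, Rab23 and Rab27a. The AP-1 letters TGANTCA were in 3.3% (2 of 60) against 6.75%, and the interferon element GAAANNGAAA in 1.7% (1 of 60) against 2.98%. The NF-kappaB consensus was in 5.0% (3 of 60) against 7.25%. A match is a description of letters and no site, and these differences, which rest on few promoters, were not tested.

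The listed genes that regulate Rabs were detected more fully than the Rabs, and the effector genes in a share near that of the Rabs. The share detected was 76.3% for the Rab genes and 53.5% for all protein-coding genes. Of the listed GEF genes 34 of 35 with values were detected, of the GAP genes 35 of 38, of the genes for GDP dissociation inhibitors and prenylation 7 of 7, and of the effector genes 34 of 43. Median levels were 4.48 ± 0.12 for GEFs, 4.48 ± 0.09 for GAPs, 4.25 ± 0.23 for inhibitors and prenylation, and 3.67 ± 0.06 for effectors (log2(TPM + 1), SD, n = 3). Replicate 1 was highest for 16 of 34 detected GEF genes, 10 of 35 GAP genes, 2 of 7 and 9 of 34 effector genes, against the background of 36.7% given above.

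The highest GEF gene was Dennd1a, a GEF for Rab35, with 347, 252 and 286 TPM. The highest GAP gene was Tbc1d13, a GAP for Rab35, with 157, 136 and 133 TPM. Rab35 had 11.3 ± 1.10 TPM (SD, n = 3), and the GAPs Tbc1d10a and Tbc1d10c, which also act on Rab35, had 9.33 ± 1.04 and 0.440 ± 0.113. Their paralog Tbc1d10b was higher, at 53.0 ± 10.8 TPM. The Tbc1d10 genes fall outside the rule by which regulators were named. Madd, a GEF for Rab3 and Rab27, had 173 ± 20.2 TPM although Rab3 and Rab27 genes were low. Rab3gap2, a subunit of the Rab3 GAP, had 88.2 ± 9.73 TPM. At the low end were Dennd3, a GEF for Rab12, at 0.230 ± 0.166 TPM, and Sgsm1, listed at 0 but at 2.61 ± 0.0399 TPM in the read-based table. Gdi2, which extracts Rabs from membranes, had 78.2 ± 4.28 TPM, and Rabac1, the lowest of the genes for inhibitors and prenylation, 2.11 ± 0.320.

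The effector genes ranged from levels as high as those of Dennd1a to 0. Myo5a, a motor that moves Rab-bearing organelles, had 279, 284 and 345 TPM, and Appl2, an early endosome adaptor, 248, 241 and 332. At the other end, the Rab27 effectors Sytl1, Sytl2, Sytl3, Sytl4 and Sytl5 had mean levels of 0.0233, 0.00333, 0.247, 0.0167 and 0 TPM, a group singled out after its values were seen. Mlph and Rph3a, which also bind Rab27 or Rab3, had 0.0833 and 0.0200 TPM, and Myrip and Rims1 were listed at 0. In the read-based table Sytl4 had 2.77 ± 0.300 and Mlph 2.07 ± 0.508 TPM, and the other genes of this group, Rph3a, Myrip and Rims1 included, stayed under 1 TPM. Unc13d, a Rab27 effector of granule release, was high in comparison, at 26.6 ± 1.12 TPM (SD, n = 3) and 51.1 in the read-based table.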

How the data were processed

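Total RNA of the chromatin fraction was sequenced after ribosomal RNA depletion, in 3 libraries whose size range the labels give as 250 to 400. The authors deposited, per library, a gene table and a transcript table with expected counts and TPM derived from alignments to the transcriptome, and a transcript table with estimated counts and TPM derived from the reads, on mm10 with GENCODE M21 per the README files deposited with them. Tools and the use of strand are not given in the sources used here. TPM sum to the same total in each library, so RNAs that are very abundant or very short lower the rest.

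TPM of the gene table are the levels unless the read-based table is named, which was summed per gene; log2(TPM + 1) understates differences between low genes. Detection needed a mean expected count of 10, shares of transcript types a mean of 1 TPM. Rows that name no gene of the read-based tables held 1.30, 0.563 and 0.298% of expected counts and were left out. With 1 group, no test between conditions was made; SDs are over the 3 libraries. Alternatives were the read-based table, a pseudocount of 0.1, TPM rescaled without features under 200 bases and the ribosomal RNA locus, edgeR 4.0.16 TMM and DESeq2 1.42.0 size factors on rounded expected counts, other filters, and leaving out each replicate.

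The named Rab genes are the 10 highest, the highest and lowest of each role, the 5 with the largest SD and the 2 with the largest difference per library among those with at least 100 mean counts, the 5 with the widest gap between tables, and the 5 with the lowest protein-coding share; other members are given by role. Regulators are named by the highest and lowest of each list, and a gene that this rule takes is not reported here. Members, lists and this rule were chosen with earlier results of these data known. Shared exons, stretches of 31 bases, common coding runs, promoters, motifs, the 700-base limit and the alternative without members sharing exons were chosen after values were seen. Promoters and sequences came from RefSeq (GRCm38.p6) and GENCODE M21. Of 60 promoters, 50 had bases after the start that matched a transcript of the gene. Checks on simulated data were part of the steps, which used Python 3.11.15, numpy 2.4.6, pandas 2.3.3, matplotlib 3.10.9 and R 4.3.3.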

Additional observations from a re-analysis of the deposited data

How the results depend on the processing

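Of the results on the family, 90 values under alternatives kept their side or stayed within the spread, 27 moved and 2 changed sign. Median levels and shares with a replicate left out could not move past the spread, which is the SD over the same 3 libraries. The median level of the Rab genes (2.88, log2(TPM + 1)) was 3.57 in the read-based table, 2.70 with a pseudocount of 0.1, 3.70 with rescaled TPM and 3.57 over detected members; without the members that share exons, an alternative added after seeing the data, it was 1.57. In the read-based table, role medians were 3.47 for ER and Golgi, 3.81 for recycling, 5.24 for late endosome and lysosome, 2.10 for secretion, 3.35 for lysosome-related organelles and 1.00 for other, so that late endosome and lysosome stood above early endosome (4.10). With a pseudocount of 0.1 they were 2.90 for ER and Golgi, 2.75 for recycling, 0.71 for secretion, 2.75 for lysosome-related organelles and -0.12 for other. With rescaled TPM they were 3.89 for ER and Golgi, 5.05 for early endosome, 3.75 for recycling, 4.77 for late endosome and lysosome, 1.96 for secretion, 3.75 for lysosome-related organelles and 1.41 for other, since leaving out short features raises all others.

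Replicate 2 was highest for 10 Rab genes in the read-based table (22.2%, against 33.0% of all detected genes; 5 in the main one), and replicate 3 for 10 with rescaled TPM (22.2%, against 24.6%; 17 in the main one). The median difference of replicate 3 (0.03) was -0.04 with rescaled TPM and ranged from -0.08 to 0.12 when replicate 2 or replicate 1 was left out. Without members that share exons, replicate 1 was highest for 16 of 27. The protein-coding share (86.4%) was 65.7% in the read-based table, over the 49 Rab genes of at least 1 TPM there, and 94.6% for genes of at least 5 TPM. The causes were not tested. Of the 28 named levels, 21 moved by more than the spread in the read-based table and 24 with rescaled TPM. None moved when a replicate was left out, but that was fixed in advance. Leaving out 1 of 3 libraries cannot move a mean by more than their SD, which is the spread used. No paired analysis was possible because the replicate numbers belong to 1 group. Genes under about 10 counts rest on few reads, and their order is not resolved at this depth.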
